A study of Mus musculus with 6 samples.

Results

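Messenger RNAs for the proteins that make microRNAs, load them onto targets and destroy mRNA were compared between long-term haematopoietic stem cells (LT-HSCs) with and without the RNA-binding protein IMP1. The 40 genes were taken as a named list covering microRNA processing, Argonaute and GW182 proteins, deadenylation, decapping, decay-directing RNA-binding proteins and nonsense-mediated decay. All 40 were found, out of 21761 genes in the table. The 3 IMP1 libraries came from the genotype Rosa26 I/+;Mx1-Cre tg/+, in which Cre switches on an IMP1 cDNA from the Rosa26 locus. The 3 Control libraries came from Rosa26 +/+;Mx1-Cre tg/+ by the sample characteristics, which were followed here. The series design text writes the control genotype differently. In both groups CD45.2 donor marrow had been transplanted into lethally irradiated CD45.1/2 hosts, and both received poly(I:C), which induces Mx1-Cre through its interferon-responsive promoter. That promoter is active in several cell types, so that donor cells other than stem cells recombine too. Each library was made from 200 donor-derived cells sorted as CD45.2+ LSK CD150+ CD48- CD34-, 8 weeks after the last injection. The labels call the replicates biological. They give neither the age of the animals nor whether cells of several animals were pooled.

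The microRNA pathway starts in the nucleus, where Drosha and its partner Dgcr8 cut hairpins out of primary transcripts, continues with export by exportin-5 and a second cut by Dicer, and ends with a microRNA held in an Argonaute protein. Argonaute recruits GW182 proteins of the Tnrc6 family, which bring in the deadenylases PAN2-PAN3 and CCR4-NOT, after which the cap is removed by Dcp2 and the body of the mRNA is degraded from its 5′ end by Xrn1. Other adaptors, such as tristetraprolin (Zfp36) and Pumilio, lead chosen mRNAs into the same machinery, and nonsense-mediated decay removes mRNAs with premature stop codons. IMP1 itself is known for protecting bound mRNAs from decay. The libraries report the mRNAs of these proteins. They do not measure microRNAs, mRNA half-lives or protein.

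Library totals were 25749898 to 27338450 counts in Control and 50220629 to 67083116 in IMP1, so that depth differed with genotype and the effects of depth and genotype cannot be told apart. Counts of Igf2bp1, the gene of IMP1, were 0, 0 and 1 in Control and 1870, 2084 and 2016 in IMP1. Of the LT-HSC markers Ptprc, Kit, Ly6a, Slamf1, Procr, Mecom, Hlf, Tek, Fgd5 and Hoxb5, 10 of 10 had counts, with summed levels of 1563 to 1806 CPM (counts divided by library size, scaled by the trimmed mean of M values, TMM) in Control and 1835 to 2174 in IMP1. Of the proteins the gate excluded, Cd34 mRNA was present at 263, 317 and 270 CPM in Control and 213, 141 and 151 in IMP1 (log2 fold change −0.75, adjusted p = 0.1097 by edgeR and 0.00137 by DESeq2), and Cd48 at 18.1, 1.86 and 2.84 against 26.8, 7.86 and 3.31 CPM. The 7 myeloid markers summed to 698 to 822 CPM in Control and 474 to 522 in IMP1. Lyz2 (means 463 and 288) and Prtn3 (258 and 206) made up most of this. Mpo, Elane, Ctsg, Csf1r and Ms4a3 each averaged at most 11.0 CPM in either group. The 6 measured erythroid markers summed to 22.0 to 24.1 in Control and to 247, 10.3 and 37.2 in IMP1. Car1 alone stood at 147 CPM in IMP1 1, while Epor averaged 15.8 in Control and 11.3 in IMP1. The 7 lymphoid markers, with Cd3g at 0 counts in every library, reached at most 4.2 CPM except for 34.6 in IMP1 2. The 5 mast cell or basophil markers, with Mcpt1 at 0, stayed at or below 14.7 and the 5 megakaryocyte markers ranged from 231 to 662 without separating the groups. The part of these markers in the results on decay genes was not tested. Fewer cells of a type and less RNA per cell cannot be told apart in such libraries.

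None of the 40 genes passed the threshold of the test across all genes, edgeR's quasi-likelihood test at a Benjamini-Hochberg adjusted p under 0.05 (0 of 40). Over all 12807 genes tested, 0.211% did. All 40 passed the filter on low counts. DESeq2 called 1 of them, Dicer1, where it called 5.55% of all genes, and limma-voom called 0, where it called 0.0859% of all genes. At an unadjusted p under 0.05 edgeR placed 7 of the 40 higher in IMP1 cells (17.5%, against 6.67% of all genes) and 1 lower (2.50%, against 7.63%). The 7 were Dicer1, Tnrc6c, Cnot7, Pan3, Zfp36, Upf2 and Smg1, and the 1 was Cnot8. The 3 IMP1 values lay above all 3 Control values for 7 members (17.5%, against 10.7% of all genes) and below them for 2 (5.0%, against 11.1%). Those above were Dicer1, Tnrc6b, Tnrc6c, Cnot6, Zfp36, Upf1 and Smg1, and those below were Drosha and Cnot8. In either direction 9 of the 40 separated (22.5%), near the 21.9% of all genes.

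**Figure D1:**
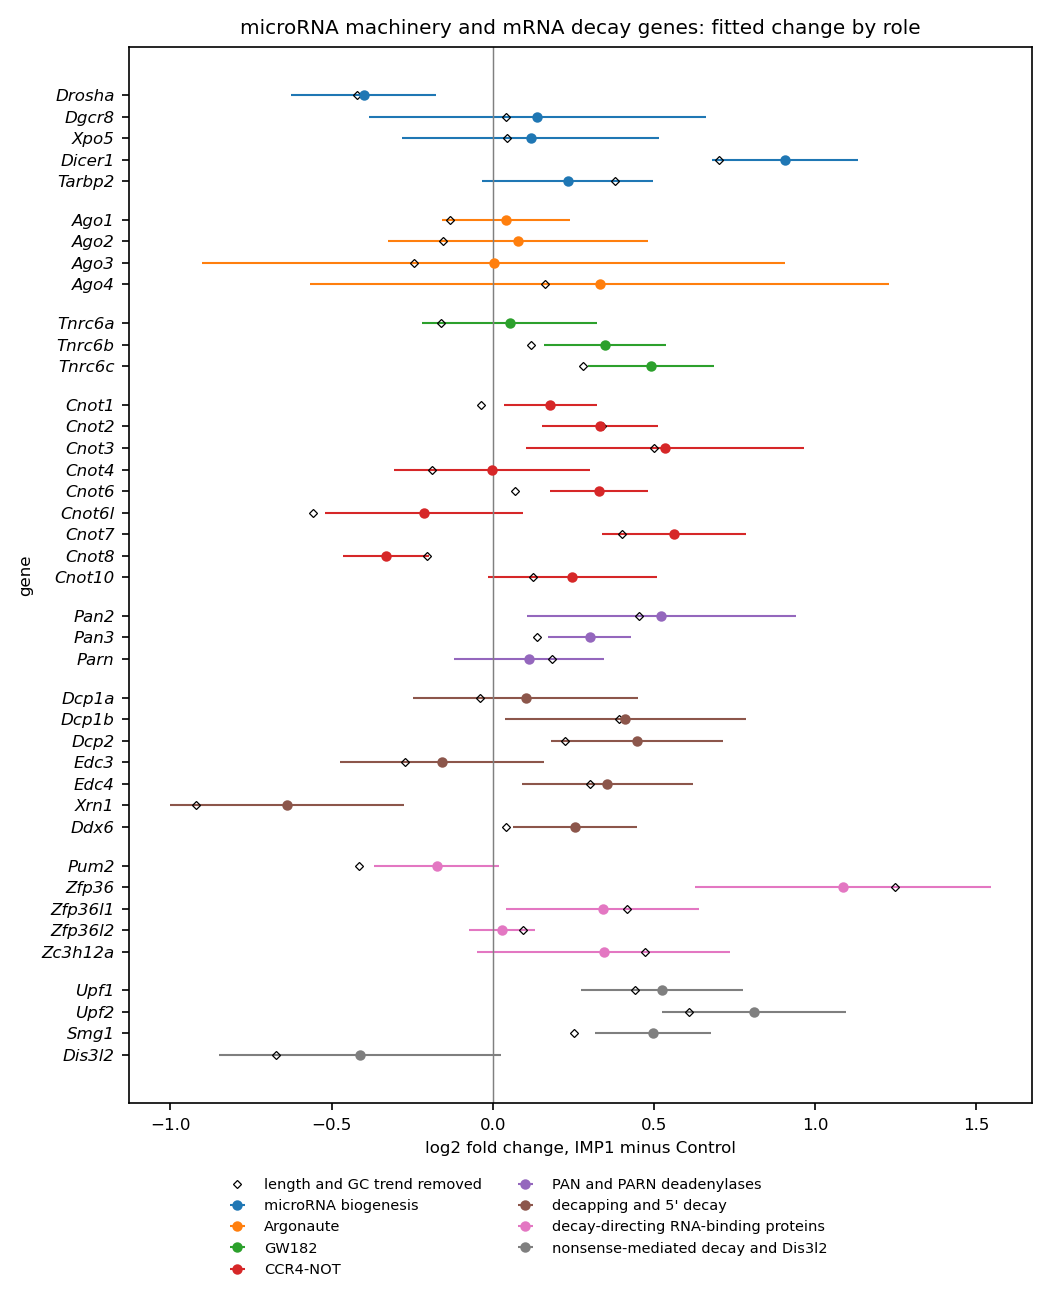
Fitted log2 fold change (IMP1 minus Control, horizontal axis) of each of the 40 genes (vertical axis), coloured by role, with bars for 1 standard error and open diamonds for the fit adjusted for transcript length and GC content. Most points lie right of 0, with a median of 0.25, the bars of Ago3 and Ago4 are the widest, and for Argonaute, GW182 and several CCR4-NOT genes the diamond lies left of the point.

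The members leaned to positive values as a list. Their log2 fold changes were positive for 32 of 40 (80.0%), against 52.2% of all genes tested, with a median of 0.25 against 0.03. Several of the 32, Ago3 at 0.0025 (SE 0.90) among them, changed sign under other settings, as listed in the last section. Summed over the 40 genes, the level was 3396, 3573 and 3129 CPM in Control and 3705, 3715 and 3851 in IMP1, so that the sums of the groups did not overlap. Without IMP1 1 the median was 0.17. Transcript length moved with this result. The longest annotated transcripts of the members had a median of 5207.5 bases, against 3376 for all genes tested, and 25 of the 40 fell in the longest of 4 equal bins of transcript length, which starts at 4775 bases and counts genes with a mean log2 CPM over 3. Members were placed in the bins by length alone, without that limit on level. In the longest bin the median log2 fold change was 0.17 for all genes and 0.25 for the 25 members. In the bin from 2221 to 3387 bases it was −0.10 for all genes and 0.34 for 6 members, all 6 of them positive. In a fit with a smooth trend on length and GC content taken out of each library (the length-adjusted fit), 26 of the 40 were positive (65.0%, against 52.5% of all genes) and the median was 0.12, against 0.03 for all genes. At an unadjusted p under 0.05 that fit held 2 members with a positive change, Dicer1 and Zfp36 (5.0%, against 5.72% of all genes), and 1 with a negative change, Xrn1 (2.50%, against 6.4%). In that fit the members' share under this threshold was not above that of all genes, while their share of positive values and their median were. How much of the lean goes with length or GC content was not tested.

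**Figure D2:**
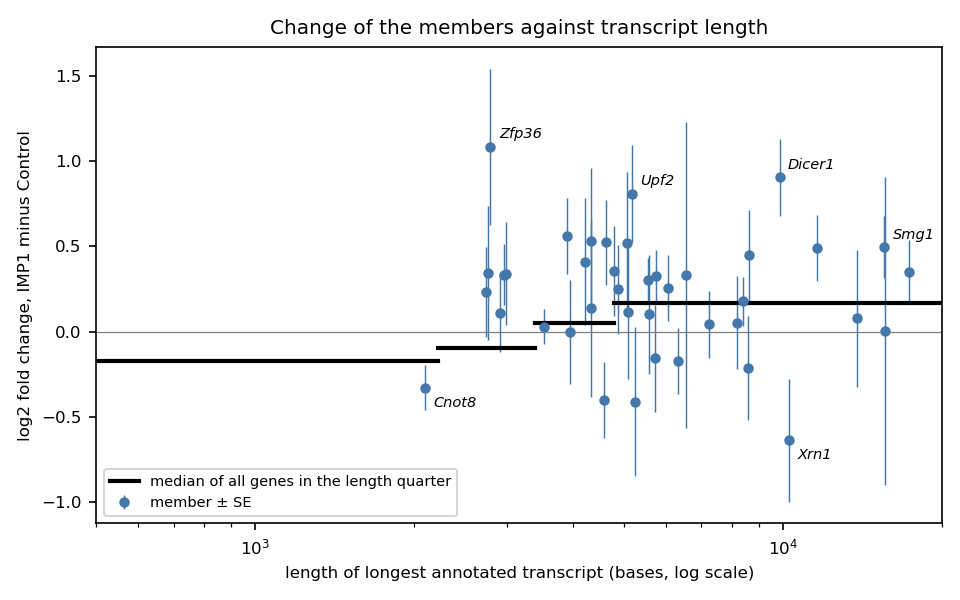
Fitted log2 fold change (IMP1 minus Control) of each member with its standard error against the length of its longest annotated transcript in bases (log scale), with the median of all genes in each of 4 length bins as a black line. The black lines step up from −0.17 in the shortest bin to 0.17 in the longest, and most members lie in the longest bin.

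Among the microRNA processing genes, Dicer1 had all 3 IMP1 libraries well above Control. Dicer1 (Entrez gene 192119), the ribonuclease that cuts precursor hairpins to mature size, had 21.7, 29.4 and 23.5 CPM in Control and 45.2, 49.0 and 45.5 in IMP1. The highest Control library lay below every IMP1 library. The means were 24.9 ± 4.07 and 46.6 ± 2.12 CPM (SD, n = 3), a log2 fold change of 0.91 (SE 0.23, adjusted p = 0.128), the lowest adjusted p among the 40. DESeq2 gave an adjusted p of 0.0190, and over 15 alternatives it ranged from 0.0190 to 0.302. The length-adjusted fit gave 0.70 for this transcript of 9851 bases (adjusted p = 0.264). Drosha, which makes the first cut, had the opposite sign, with 45.3, 35.7 and 41.2 CPM in Control and 30.4, 34.5 and 27.7 in IMP1. Its groups did not overlap either, though Control 2 and IMP1 2 lay close together (log2 fold change −0.40, SE 0.22, adjusted p = 0.480). Tarbp2, a double-stranded RNA-binding partner of Dicer, stood at 35.2, 33.9 and 24.3 against 41.4, 28.9 and 39.4 CPM (0.23, adjusted p = 0.755). Its span in the reference overlaps that of Map3k12. Dgcr8, the RNA-binding partner of Drosha, ranged from 9.65 to 35.8 CPM in Control and from 15.4 to 39.7 in IMP1, and Xpo5, the export receptor, from 21.3 to 39.2 and from 16.6 to 39.7. Neither separated the groups. The promoter of Dicer1 is given because this gene had the lowest adjusted p of the list. It is the 250 bases before the annotated start, on chr12:104751953-104752202 (minus strand, GRCm38.p6, from RefSeq), of which 76.0% are G or C.
Dicer1 promoter: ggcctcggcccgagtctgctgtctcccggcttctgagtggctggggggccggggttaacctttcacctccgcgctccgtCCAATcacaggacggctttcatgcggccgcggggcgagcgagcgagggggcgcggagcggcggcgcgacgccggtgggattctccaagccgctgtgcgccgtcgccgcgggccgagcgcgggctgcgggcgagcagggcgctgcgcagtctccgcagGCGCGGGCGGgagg
Capitals mark matches, on either strand, to the 7 motifs searched, which were the CCAAT box, the Sp1 core GGGCGG, the Egr1 motif GCGNGGGCG, the E-box CACGTG, the AP-1 motif TGANTCA, the cyclic AMP response element TGACGTCA, and the CArG box of serum response factor. The Dicer1 window held 1 CCAAT match and a GCGNGGGCG match that overlaps a GGGCGG match. Of 32851 promoter windows of the same length, 33.9% held CCAAT, 32.7% GGGCGG and 4.70% GCGNGGGCG. These matches are a description of the letters only.

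Argonaute mRNAs did not differ beyond their spread, and Ago1 made up most of them. The Argonautes bind the microRNA, and Ago2 is the member that can cut its target. Ago1 stood at 45.2, 46.3 and 56.0 CPM in Control and 46.6, 49.4 and 55.7 in IMP1 (log2 fold change 0.04, SE 0.20, adjusted p = 0.948). Per kilobase of the longest transcript, the mean over the 6 libraries was 6.90 CPM for Ago1, 1.29 for Ago4, 0.783 for Ago2 and 0.537 for Ago3. The annotated transcripts of Ago2 and Ago3 are long (13800 and 15595 bases), and shorter transcripts in the cells would raise their values per length. By reads alone Ago1 held 65.6% of Argonaute counts in Control and 64.6% in IMP1 cells. Per length its share was 73.6% ± 7.14 and 72.7% ± 11.9 (SD, n = 3, exact permutation p = 1.0 of the difference). Ago3 and Ago4 were the least steady. Ago3 had 112, 498 and 30 counts in Control and 687, 346 and 487 in IMP1, and the 30 counts in Control 3 are the lowest of any member in any library. Ago4 had 144, 216 and 212 counts in Control and 921, 50 and 678 in IMP1, or 5.41, 8.55 and 8.49 against 14.5, 0.722 and 13.1 CPM (log2 fold change 0.33, SE 0.90, adjusted p = 0.909). IMP1 2 lay below every Control library for Ago4 while the other two IMP1 libraries lay above. Differences in these transcripts smaller than that spread were not detectable here. Of the 4 Argonautes, 4 had positive values with TMM scaling and 1 in the length-adjusted fit.

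The GW182 family, the scaffolds between Argonaute and the deadenylases, summed to 162, 171 and 186 CPM in Control and 213, 217 and 216 in IMP1, sums that did not overlap. Tnrc6c had 72.7, 58.3 and 66.9 CPM in Control and 82.3, 114.5 and 81.2 in IMP1. All 3 IMP1 libraries were above Control, with IMP1 2 the highest (log2 fold change 0.49, SE 0.20, adjusted p = 0.309). Without IMP1 2 its value was 0.31, and in the length-adjusted fit 0.28 for a transcript of 11590 bases. Tnrc6b stood at 41.5, 53.1 and 48.0 against 56.3, 61.8 and 63.5 CPM, again without overlap (0.35, SE 0.19, adjusted p = 0.464), and its value was 0.12 in the length-adjusted fit. Tnrc6a stood at 48.0, 60.1 and 71.1 against 74.0, 41.0 and 70.8 CPM, with IMP1 2 the lowest of the 6 libraries (0.05, SE 0.27, adjusted p = 0.952, and −0.16 in the length-adjusted fit). In IMP1 2 the make-up of the family was accordingly 53.5% Tnrc6c and 27.2% Tnrc6a per length, against 32.6% to 43.1% and 40.4% to 50.4% in Control, while IMP1 1 and IMP1 3 had 36.6% and 36.3% Tnrc6c. The family shares did not differ between groups beyond this spread (exact permutation p = 0.5 for Tnrc6a and for Tnrc6c).

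CCR4-NOT, the main cytoplasmic deadenylase, showed its clearest contrast between the paralogous catalytic subunits Cnot7 and Cnot8. Cnot7 had 58.2, 87.2 and 79.2 CPM in Control and 86.0, 111 and 134 in IMP1, and IMP1 1 lay just under Control 2 (log2 fold change 0.56, SE 0.22, adjusted p = 0.307). Cnot8 had 192, 179 and 196 CPM in Control and 154, 166 and 131 in IMP1, with every IMP1 library lower (−0.33, SE 0.13, adjusted p = 0.308). Per length, Cnot7 made up 14.1%, 20.8% and 17.9% of the pair in Control and 23.2%, 26.5% and 35.7% in IMP1, means of 17.6% ± 3.37 and 28.5% ± 6.46 (SD, n = 3). The shares did not overlap. The exact two-sided permutation p was 0.1, the smallest that 3 against 3 libraries allow, and 0.433 adjusted over the 13 shares computed. Cnot7 has the longer transcript (3888 against 2099 bases), and in the length-adjusted fit the shares were 15.4%, 21.6% and 20.2% against 21.0%, 25.0% and 33.4%, with IMP1 1 inside the Control range. The span of Cnot7 in the reference overlaps that of Vps37a, which stood at 28.2, 46.7 and 49.8 against 73.6, 66.9 and 65.5 CPM. Reads of the overlap may have been counted for either, and the part of Vps37a in the Cnot7 value was not tested.

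The other catalytic pair of CCR4-NOT, Cnot6 and Cnot6l, leaned to Cnot6, with shares of 78.3% ± 5.72 in Control and 84.1% ± 5.0 in IMP1 (exact permutation p = 0.2). Cnot6 itself stood at 115, 129 and 106 against 141, 129.9 and 169 CPM, without overlap, though Control 2 and IMP1 2 all but met (log2 fold change 0.33, adjusted p = 0.388, and 0.07 in the length-adjusted fit). Cnot2, a structural subunit and one of the most abundant CCR4-NOT mRNAs per length, stood at 187, 169.8 and 156 against 270.3, 169.8 and 206 CPM (0.33, SE 0.18, adjusted p = 0.461). Cnot1, the scaffold of the complex, stood at 140.8 ± 20.6 against 159 ± 6.27 CPM (0.18, adjusted p = 0.637, and −0.04 in the length-adjusted fit). The other members were Cnot3 (0.53), Cnot4 (−0.00), the E3 ligase of the group, Cnot6l (−0.21) and Cnot10 (0.25), with adjusted p from 0.635 to 0.999. In all, 6 of 9 CCR4-NOT members were positive, and 5 of 9 in the length-adjusted fit.

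**Figure D3:**
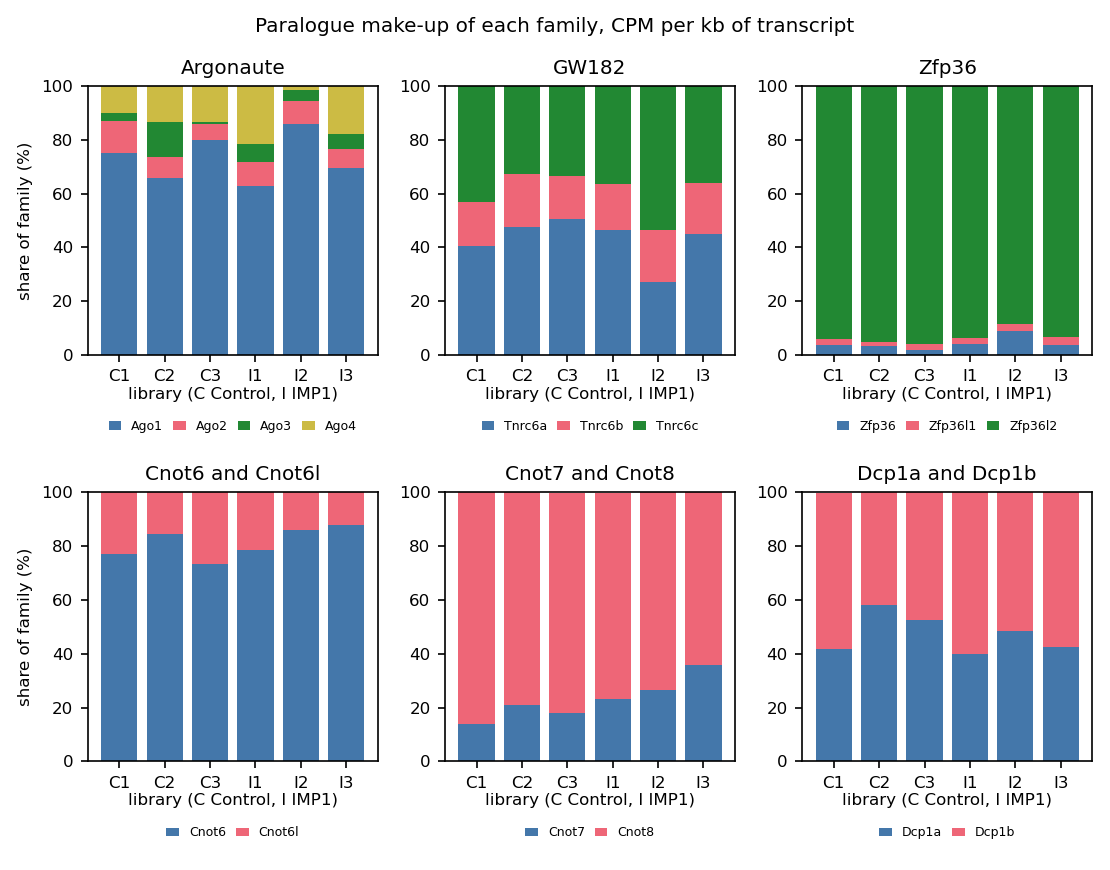
Share of each paralogue in its family (percent of summed CPM per kilobase of the longest transcript, vertical axis) in the 3 Control (C1 to C3) and 3 IMP1 (I1 to I3) libraries, for 6 families. Ago1 and Zfp36l2 dominate their families in every library, and the Cnot7 part of its pair is 14.1% to 20.8% in Control and 23.2% to 35.7% in IMP1.

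Of the other deadenylases, Pan3, the regulatory subunit that holds the Pan2 enzyme, was among the most abundant members. It had 372, 431 and 321 CPM in Control and 429, 451 and 504 in IMP1, with IMP1 1 just under Control 2 (log2 fold change 0.30, SE 0.13, adjusted p = 0.345). Without Control 3 its value was 0.20 and in the length-adjusted fit 0.14. Pan2 was far lower and less steady, at 14.6, 42.1 and 17.5 CPM in Control and 31.6, 32.4 and 42.5 in IMP1 (0.52, SE 0.42, adjusted p = 0.633). Per kilobase Pan3 stood at 75.4 CPM and Pan2 at 5.96. Parn, a poly(A)-specific ribonuclease with roles in the nucleus, stood at 49.3, 39.4 and 57.1 against 47.9, 63.6 and 46.0 CPM (0.11, SE 0.23, adjusted p = 0.878). All 3 were positive in both fits, though Parn reached −0.05 with a library left out.

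None of the 7 decapping members separated the groups (0 of 7, where 21.9% of all genes did), and edgeR gave an unadjusted p under 0.05 to 0 of 7 (14.3% of all genes), counts too small to tell from those shares. Ddx6, the helicase that couples translational repression to decapping, was the most abundant of them per length, at 52.4, 71.1 and 63.9 against 69.7, 85.4 and 68.6 CPM (log2 fold change 0.26, SE 0.19, adjusted p = 0.610, and 0.04 in the length-adjusted fit). Edc3, an enhancer of decapping, stood at 74.4, 49.9 and 45.4 against 33.3, 69.6 and 49.3 CPM, with the groups intermixed (−0.16, SE 0.32, adjusted p = 0.874). Dcp2, the decapping enzyme, stood at 28.9 ± 7.38 against 39.5 ± 5.19 CPM (0.45), its scaffold Edc4 at 31.3 ± 8.22 against 40.0 ± 5.2 (0.36), and its activators Dcp1a and Dcp1b at 18.6 ± 1.59 against 19.95 ± 7.41 and 14.1 ± 4.78 against 18.8 ± 3.40. Xrn1, the exonuclease that follows decapping, was the member with the most negative value. It had 24.3, 14.7 and 22.0 CPM in Control and 17.0, 10.9 and 11.3 in IMP1, and Control 2 lay below IMP1 1 (−0.64, SE 0.36, adjusted p = 0.487). In the length-adjusted fit this transcript of 10256 bases had −0.92 (adjusted p = 0.370), the lowest adjusted p it reached.

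The decay-directing RNA-binding proteins were dominated by Zfp36l2, a CCCH zinc finger protein that binds AU-rich elements. It was the most abundant of the 40, at 270 CPM per kilobase, and its groups overlapped, with 922, 1049 and 858 CPM in Control and 877, 1029 and 981 in IMP1 (log2 fold change 0.03, SE 0.10, adjusted p = 0.930). Zfp36, which encodes tristetraprolin and is an immediate-early gene as well as a decay factor, had 27.3, 27.1 and 14.0 CPM in Control and 30.5, 82.9 and 31.8 in IMP1. The IMP1 libraries all lay above Control, IMP1 1 and IMP1 3 by a few CPM and IMP1 2 by far. Its log2 fold change of 1.09 (SE 0.46, adjusted p = 0.334) was the largest of the 40, and 0.45 without IMP1 2 (adjusted p = 0.713). Zfp36 held 2.87% ± 0.798 of the family per length in Control and 5.66% ± 2.92 in IMP1 (exact permutation p = 0.1, 0.433 adjusted over the 13 shares), a difference of 2.79 percentage points that was 1.10 without IMP1 2. Zfp36l1 stood at 17.6 ± 2.98 against 22.3 ± 3.51 CPM (0.34, adjusted p = 0.669). Pum2, a Pumilio protein, stood at 197, 245 and 209.7 against 224, 138 and 216 CPM, with IMP1 2 below every other library (−0.17, SE 0.19, adjusted p = 0.750), and its value was 0.02 without IMP1 2. Zc3h12a, the endonuclease Regnase-1, stood at 10.2 ± 1.34 against 12.9 ± 3.66 CPM.

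Other immediate-early genes were high in the same library as Zfp36. Of 12 on the list, 11 had counts and 8 of the 11 had their highest level in IMP1 2, among them Fos at 66.4 CPM there and 4.73 and 0.443 in IMP1 1 and IMP1 3, against at most 0.158 in Control. Dusp1, a phosphatase of the same response, stood at 46.6 CPM in IMP1 2, 16.8 and 10.2 in the other IMP1 libraries and at most 11.6 in Control. The list summed to 303 CPM in IMP1 2, to 127 and 121 in IMP1 1 and IMP1 3 and to 117 to 164 in Control. Of the 40 members, 10 had their highest level in IMP1 2. Btg2, an antiproliferative gene of the list, differed in direction, with 32.7, 33.8 and 17.8 CPM in Control and 8.01, 4.14 and 10.5 in IMP1. Ier3 also had a negative log2 fold change, at 65.0, 38.2 and 34.3 against 22.2, 40.8 and 28.3 CPM (−0.59), and Junb had −0.05. IMP1 2 also held the lymphoid transcripts given above. The part of any of these in the Zfp36 value was not tested. The promoter of Zfp36 is shown because this gene, like 8 of the 11, was highest in IMP1 2. It lies on chr7:28379229-28379478 (minus strand, GRCm38.p6, from RefSeq), with capitals as above.
Zfp36 promoter: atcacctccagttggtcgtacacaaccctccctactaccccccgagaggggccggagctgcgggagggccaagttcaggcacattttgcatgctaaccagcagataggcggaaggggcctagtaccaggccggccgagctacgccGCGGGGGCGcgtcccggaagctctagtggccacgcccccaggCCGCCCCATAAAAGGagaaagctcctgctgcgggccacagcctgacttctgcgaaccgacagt
It held 1 CArG box, on bases −58 to −49 from the start, which overlaps a GGGCGG match on the other strand, and 1 GCGNGGGCG match. A CArG box was found in 1.47% of the 32851 windows. RefSeq gave a promoter for 34 of the 40 members, and Zfp36 was the 1 of 34 with a CArG box. None of the 10 immediate-early genes with a promoter had one within the same window (0 of 10).

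**Figure D4:**
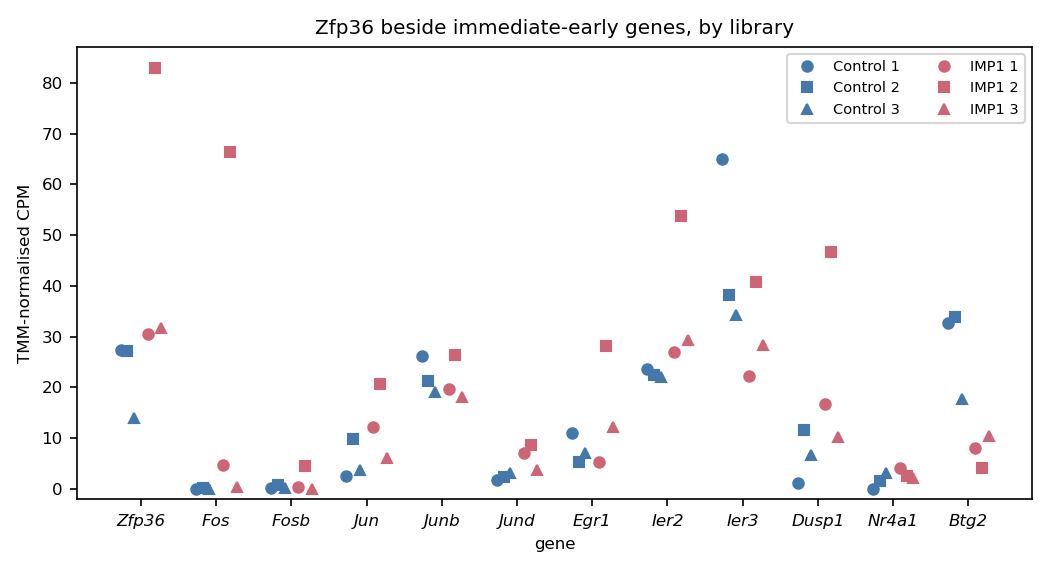
TMM-normalised CPM (vertical axis) of Zfp36 and of the 11 immediate-early genes with counts (horizontal axis), 1 point per library, blue for Control and red for IMP1, with the symbol giving the replicate. The red square, IMP1 2, is the highest point for Zfp36 at 82.9 CPM and for 8 of the 11 genes.

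Among the last 4 members, the nonsense-mediated decay genes Upf1, Upf2 and Smg1 had positive values and Dis3l2 a negative one. Upf2, which bridges the exon junction complex and the helicase Upf1, had 36.3, 25.0 and 29.5 CPM in Control and 62.7, 61.0 and 35.6 in IMP1, with IMP1 3 inside the Control range (log2 fold change 0.81, SE 0.29, adjusted p = 0.261). Smg1, the kinase that phosphorylates Upf1, had 129, 103 and 99.5 CPM in Control and 138, 139.9 and 190.3 in IMP1, without overlap (0.50, SE 0.18, adjusted p = 0.275). Without IMP1 3 its value was 0.33, and in the length-adjusted fit this transcript of 15557 bases had 0.25. Upf1 itself stood at 22.0, 23.1 and 30.1 against 34.7, 41.2 and 32.5 CPM, also without overlap (0.53, SE 0.25, adjusted p = 0.4). Its value was 0.44 in the length-adjusted fit. Dis3l2, a 3′ exonuclease that degrades uridylated RNA, differed in sign, at 50.6, 18.5 and 40.1 against 38.2, 16.5 and 27.5 CPM (−0.41, SE 0.44, adjusted p = 0.734).

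**Figure D5:**
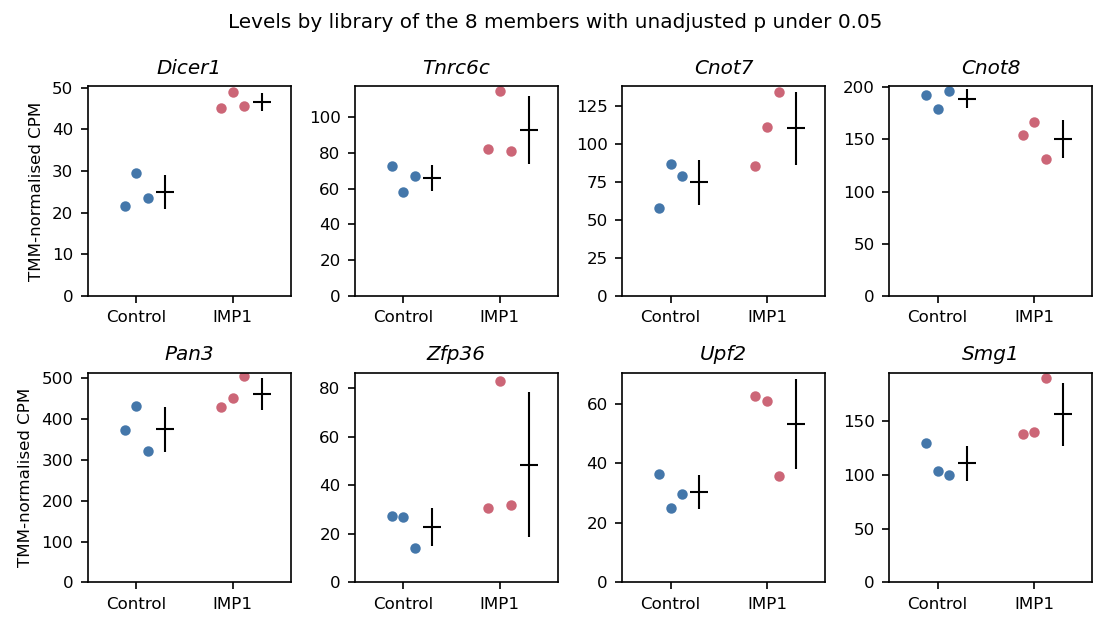
TMM-normalised CPM (vertical axis, from 0) of the 8 members with an unadjusted p under 0.05, 1 point per library, with the mean and SD (n = 3) of each group beside the points. The groups are apart for Dicer1, Tnrc6c, Cnot8, Zfp36 and Smg1 and meet for Cnot7, Pan3 and Upf2, and the SD of Zfp36 in IMP1 rests on 1 library at 82.9 CPM.

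Levels spread widely over the machinery. Per kilobase, 13 of the 40 averaged over 10 CPM, led by Zfp36l2, Cnot8, Pan3 and Cnot2, and 4 averaged under 2 CPM, namely Ago2, Ago3, Ago4 and Xrn1. The spread between libraries also differed. For 15 members the coefficient of variation was under 20% in both groups, Dicer1, Cnot8, Pan3 and Zfp36l2 among them. For 5 it was over 50% in at least 1 group, namely Dgcr8, Ago3, Ago4, Pan2 and Zfp36. The highest value of a member fell in Control 1, 2 or 3 for 5, 4 and 3 genes and in IMP1 1, 2 or 3 for 9, 10 and 9, and the lowest fell in Control 3 for 15.

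Other genes of the same pathways, 97 in all, had changes of both signs. Of the 95 that passed the low-count filter (Trim71 and Samd4 did not), 0 were called by edgeR and 4 by DESeq2, and edgeR's unadjusted p was under 0.05 for 8 with a positive and 7 with a negative change (8.42% and 7.37%, against 6.67% and 7.63% of all genes). Their median log2 fold change was 0.10, and 59 of 95 were positive (62.1%). DESeq2's 4 calls are 4.21% of the list, below its 5.55% over all genes, and 3 of the 4 had negative changes. The genes with the lowest p are described next, first those with positive changes. Ddx5, a helicase of the Drosha complex, had 637, 661 and 619 CPM in Control and 935, 1066 and 809 in IMP1 (0.55, SE 0.11, adjusted p = 0.0850 by edgeR and 0.000214 by DESeq2). Dhx9, a helicase that binds double-stranded RNA, had 0.92 (adjusted p = 0.193), the cytoplasmic poly(A)-binding protein gene Pabpc4 0.83, the deadenylase relative Angel2 0.44, and Tia1, which binds U-rich RNA, 0.46. The length-adjusted values were 0.49 for Ddx5, 0.75 for Dhx9, 0.94 for Pabpc4, 0.38 for Angel2 and 0.27 for Tia1. Smg8 and Smg5, which act on Smg1 and on phosphorylated Upf1, had 1.52 and 0.99 (adjusted p = 0.246 and 0.278), with Smg8 at 2.30 to 6.72 CPM in Control and 12.3 to 14.8 in IMP1, and 1.59 and 0.96 in the length-adjusted fit. Each of these 7 had all 3 IMP1 libraries above Control, but they were chosen for a low p, which goes with such separation. Their lists were mixed: among microRNA cofactors 13 of 19 were positive, with Eri1 at −0.46, and of the other decay-directing proteins 14 of 17 were positive, with Stau1 at −0.42, but 9 of 17 in the length-adjusted fit (52.9%, against 52.5% of all genes).

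The other 5 genes of low p had negative changes. Cnot9, a subunit of CCR4-NOT, had 376, 391 and 367 CPM in Control and 279.8, 189 and 294 in IMP1 (−0.57, SE 0.17, adjusted p = 0.184 by edgeR and 0.0178 by DESeq2). Cnot11, the other CCR4-NOT subunit outside the 40, had the opposite sign, at 3.87, 3.68 and 5.36 against 9.53, 11.6 and 5.41 CPM (1.04, SE 0.53, adjusted p = 0.434). It is named after its values were seen, as are Eri1, Stau1 and the Lsm genes other than Lsm4. Lsm4, of the ring that binds shortened tails before decapping, had 65.1, 70.5 and 64.6 against 35.8, 48.6 and 34.6 CPM (−0.75, SE 0.21, adjusted p = 0.167 and 0.0359). Of the same ring, Lsm1, Lsm2, Lsm3, Lsm6 and Lsm7 had −0.15, −0.12, −0.22, −0.44 and −0.29, and Lsm5 had 0.13. Their length-adjusted values, in that order, were −0.08, 0.003, −0.11, −0.51, −0.06 and 0.29. For Lsm3, Lsm6 and Lsm7 the IMP1 libraries also all lay below Control. Exosc7, of the exosome that degrades RNA from the 3′ end, had 226, 234 and 229 against 145, 186 and 173 CPM (−0.45, SE 0.13, adjusted p = 0.171 and 0.0406), and Exosc5 had −0.42. Eif4a3, of the exon junction complex, had −0.37, and −0.16 in the length-adjusted fit. The length-adjusted values of Cnot9, Lsm4, Exosc7 and Exosc5 were −0.54, −0.54, −0.53 and −0.49. For Cnot9, Lsm4, Exosc7, Exosc5 and Eif4a3 all 3 IMP1 libraries lay below Control, again among genes chosen for a low p. Of the 20 exosome and Ski genes 10 were positive and 10 negative, and of 17 other decapping genes 8 were positive and 9 negative. Of those 17, 1 lay higher and 5 lower in IMP1 without overlap (5.88% and 29.4%, against 10.7% and 11.1% of all genes). Other lists went the other way. Of 14 other nonsense-mediated decay genes 6 lay higher and 1 lower (42.9% and 7.14%). Of 8 other deadenylation and poly(A)-binding genes 3 lay higher and 1 lower (37.5% and 12.5%).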

How the data were processed

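RNA sequencing counts of 6 libraries, 3 per genotype, were analysed. The values are whole-number read counts for Entrez genes in a single table that the authors deposited. Per the submitters' processing notes, TopHat2 2.0.10 and the build mm9 were used, in roles that are not named. How reads were assigned to genes, with or without strand, is not given in the sources used here, so 10 members whose span overlaps another gene of the table (8 of them a protein-coding gene) are uncertain to that extent, as are genes with pseudogene copies. Entrez identifiers were matched to symbols through RefSeq (GRCm38.p6), 21615 of 21761. Transcript length and GC content are those of the longest GENCODE M21 transcript, found for 20329 genes. No coordinates were joined to the counts, since the builds differ.

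The test was edgeR 4.0.16 (glmQLFit, glmQLFTest, R 4.3.3) with TMM scaling, filterByExpr, genotype as the single term and all genes in 1 fit, with Benjamini-Hochberg adjustment over 12807 genes. Standard errors were obtained from the size of the log2 fold change and the square root of F. The filter kept all 40 members. Alternatives used DESeq2 1.42.0, limma-voom (3.58.1), other scalings and filters, a replicate block, each library left out, thinning to 25749898 counts per library, and a loess trend (span 0.4) on length and GC removed per library. Shares within families were compared with exact two-sided permutation tests. The scripts were tested on simulated counts. Libraries of a group differed beyond the noise of counting reads alone (chi-square per degree of freedom at least 61.0). That value treats each read as a separate molecule, so it cannot tell differences between samples from noise in the sampling of molecules. Reads carry no molecular identifiers, so counts overstate the number of molecules. The p-values set a group difference against the spread between these libraries. Pooling of animals is not stated, so the number of animals behind that spread is unknown.

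Full statistics were given, by rule, to members past the threshold, then to those with an unadjusted p under 0.05 and to the 2 most abundant per length in each role, and to at most 12 pathway genes of the lowest p. Other members were named to account for the list. Of the cell type markers, 2 are not reported here. The members, lists and tests were chosen with earlier results of these data known.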

Additional observations from a re-analysis of the deposited data

How the results depend on the processing

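No member was called by edgeR under any of the 13 alternatives that used it or under limma-voom, and DESeq2 called 1, Dicer1 (adjusted p = 0.0190). Pathway genes called numbered 4 with DESeq2 and 1, Ddx5 (adjusted p = 0.0459), with at least 10 counts required in every library. Over all genes the calls, 27 in the fit reported, were 694 with DESeq2, 11 with limma-voom, 16 with total-count scaling, 103 with the strict filter, 4 with the replicate block and 12 in the length-adjusted fit. They were 0 to 2 with a library left out (0 without Control 3, where 1627 genes had an unadjusted p under 0.05). Total-count scaling moved the median of all genes from 0.03 to 0.12 and that of the members to 0.34, and split the calls into 9 higher and 7 lower instead of 9 and 18. The members' median was 0.12 in the length-adjusted fit and 0.17 to 0.30 with a library left out. The count of members without overlap, 9, ran from 10 to 18 with a library left out, where fewer values make separation easier (25.0% to 45.0%, against 31.3% to 32.9% of all genes). It was 6 in the length-adjusted fit (15.0%, against 19.8%), 8 thinned (20%, against 21.9%), 11 with the strict filter (27.5%, against 22.5%) and 13 with total-count scaling (32.5%, against 22.5%), and has no separate value under DESeq2, limma-voom or the block. Ago4 turned negative with limma-voom (−0.64) and the replicate block (−0.25), and Ago1 and Tnrc6a in the length-adjusted fit (−0.13 and −0.16). With a library left out Ago4 ran from −0.12 to 0.88, Ago1 from −0.033 to 0.14, Tnrc6a from −0.093 to 0.28, Edc3 from −0.46 to 0.09, Parn from −0.05 to 0.24, Pum2 from −0.29 to 0.016 and Zfp36l2 from −0.036 to 0.11. For these 7 genes no direction should be read, and the cause was not tested. The other 24 of the 31 genes chosen by the rule for full statistics kept their sign in all alternatives run. Outside those 31, the members Dgcr8, Xpo5, Ago2, Ago3, Cnot1, Cnot4 and Dcp1a had values on both sides of 0. So did Lsm2 among the pathway genes named above. Pathway genes not named above did so too, for example Snd1 (−0.13 to 0.23), Xrn2 (−0.04 to 0.10) and Pabpc1 (−0.08 to 0.09). No direction should be read for any of these either, and the counts of positive pathway genes include such signs. DESeq2 also called Lsm4 (−0.75), Exosc7 (−0.45), Cnot9 (−0.57) and Ddx5 (0.55). Replicate numbers did not pair the libraries (correlation of deviations 0.0149, 0.0310 and −0.00831 for the same number), so the block, under which 0 members were called by edgeR and 5 had an unadjusted p under 0.05 (12.5%, against 13.5% of all genes), is a check only, and not every library correlated best with its own number. The group difference of each paralogue share moved by less than the spread between replicates under the alternatives run for shares (read shares, a library left out, and the length-adjusted fit, added after the data were seen). With a library left out this outcome was fixed in advance, because dropping a library always moves its group's mean by less than that group's SD. That part therefore does not show how steady the shares are. The shares themselves did move with the measure: by reads Cnot7 held 28.3% in Control and 42.2% in IMP1. Thinning gave a members' median of 0.26 and 0 calls among them by edgeR (7 at an unadjusted p under 0.05, 17.5%, against 14.3% of all genes). At full depth the median was 0.25. Ago3 and Ago4, with as few as 30 and 50 counts in a library, are the least precise members.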
